A study of Drosophila melanogaster with 19 samples.

Results

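The genes described here are 49 Drosophila genes that were silent in control S2R+ cells and were found at appreciable levels after depletion of a subunit of the dREAM complex. They were chosen among the 7647 genes named by CG and a number, of 15021 genes in the deposited table, and carry such a name because their annotation gave no other. A gene was taken when its level was under 1 FPKM in both libraries from cells given dsRNA against GFP and at least 3 FPKM in both libraries of the mip40, mip120 or mip130 group. FPKM relates sequenced fragments to the length of the transcript and to all fragments mapped in the library. Levels of different genes can therefore be set side by side. The genes CG8316, CG3505, CG3509 and CG30383 were left out by name, 3 of which met these thresholds. Of the 4264 remaining CG-named genes that were silent in the GFP libraries, 49 (1.15%) were switched on in this sense. The values of the mip40, mip120, mip130 and GFP libraries therefore chose the genes, and their differences from GFP are given below as a description, without a test.

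RNA had been prepared from S2R+ cells, a line grown from embryos with features of hemocytes, the blood cells of the fly. There were 9 RNA libraries in 5 groups: 1 library after dsRNA against E2F2, 2 each after dsRNA against mip40, mip120 and mip130, and 2 after dsRNA against GFP, the control. All groups, the control included, were treated with dsRNA for 4 days at 25 °C, at 30 μg/ml before serum was added and 10 μg/ml afterwards. All cells were of 1 line with equal passage numbers. RNA was selected with oligo-dT and read in pairs of 100 bp.

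dREAM is a complex of the repressor E2F2 with its partner Dp, RBF, Myb and the Myb-interacting proteins. Mip120 is the fly relative of LIN54 and binds DNA, Mip130 is the relative of LIN9, and Mip40 is the relative of LIN37. The complex sits at the promoters of many genes and is known for holding developmental genes silent in cultured fly cells, and for a part in cell cycle control.

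Depletion of the targeted transcripts differed between groups. The level left, as a share of the GFP mean, was 9.45% for E2f2, 3.96% for mip40, 59.6% for mip120 and 16.4% for mip130, each in its own group. Other subunits changed as well. The mip40, mip120 and mip130 transcripts were each above GFP cells in the other mip groups, by 0.54 to 0.74 on the log2(FPKM + 1) scale. In the E2F2 library, mip130 was at 19.3 FPKM, against 27.7 and 29.8 in GFP libraries. What these changes did to the genes below was not tested. The summed FPKM of 14 hemocyte markers lay between 366 and 437 in all libraries, with srp and crq among the highest. That of 6 muscle markers stayed under 2, while Hml was under 0.5 FPKM and lz at or near 0 in every library. Markers of other cell types were not all low. The sum of 6 neuron markers was 51.3 to 73.9 FPKM, mostly from elav and nrv3. That of 2 glia markers was 32.3 to 43.9 FPKM, nearly all from moody. The sum of 5 ovarian follicle markers was at most 1.31 FPKM. The summed level of 8 germline markers was 149 FPKM in the E2F2 library, 163 to 164 in mip40, 169 to 170 in mip120 and 193 to 204 in mip130 libraries, against 123 to 128 in GFP libraries. In the same order, 6, 7, 8, 8 and 4 of the 8 were at 1 FPKM or more, and none was listed at 0 in any library. For 15 testis markers the sums were 68.6 in the E2F2 library, 55.3 to 58.8 in mip40, 81.5 to 84.0 in mip120 and 66.3 to 67.6 in mip130 libraries, against 39.2 to 41.1 in GFP libraries. Of these, 5, 4, 5, 5 and 3 were at 1 FPKM or more, and comr, Mst98Ca and Mst98Cb were listed at 0 in every library. Their part in the results below was not tested. In bulk RNA, fewer cells at a high level and more cells at a low level cannot be told apart for any of the genes described.

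The 49 genes were low throughout the control and differed widely between the depletions. Their median level was 0.567 FPKM in the E2F2 library, 1.51 and 1.26 FPKM in the mip40 libraries, 4.00 and 4.14 FPKM in the mip120 libraries and 4.47 and 5.24 FPKM in the mip130 libraries, against 0.207 and 0.155 FPKM in the GFP libraries. Both libraries reached 3 FPKM for 13 genes in the mip40 group (0.305% of the silent CG-named genes), for 34 in the mip120 group (0.797%) and for 38 in the mip130 group (0.891%). The median difference between the 2 libraries of a group, on the log2(FPKM + 1) scale, was 0.18 in mip40, 0.16 in mip120 and 0.15 in mip130, against 0.12 in GFP. The rule held both GFP libraries under 1 FPKM and asked for 3 FPKM in both libraries of a mip group. These differences were thus kept small in part by the choice of genes, and do not measure how replicates agree over all genes. The widest gap between replicates was that of CG14787 in the mip40 group. By the groups that reached 3 FPKM in both libraries, the genes fell into 5 classes: 10 in all of mip40, mip120 and mip130, 16 in mip120 and mip130, 3 in mip40 alone, 8 in mip120 alone and 12 in mip130 alone. In RefSeq's annotation, 7 of them now carry names and are no longer uncharacterised in that sense: Fam92 (CG6405), Gdap1 (CG4623), BaraC (CG30285), PNPase (CG11337), COX7AL (CG18193), goe (CG9634) and vrs (CG5538).

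**Figure D1:**
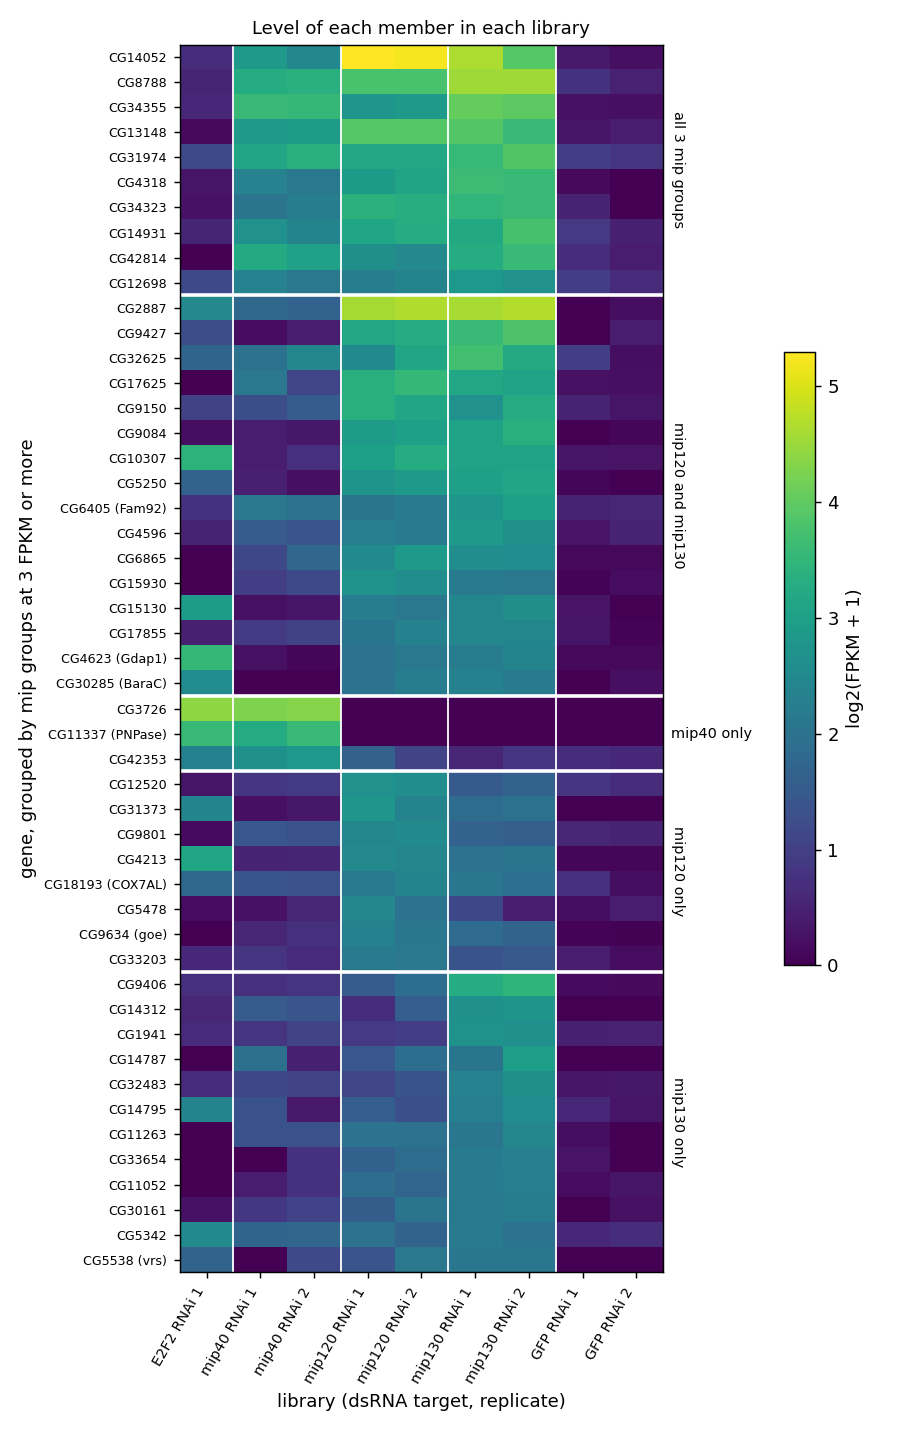
Levels of the 49 genes (rows, grouped by the mip groups in which both libraries reached 3 FPKM) in the 9 RNA libraries (columns), as log2(FPKM + 1) on the colour scale. The GFP columns are dark throughout by the choice of genes, the mip120 and mip130 columns are both bright over the first 26 rows, and the E2F2 column is dark over the first 10 rows.

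The first class holds CG14052, CG8788, CG34355, CG13148, CG31974, CG4318, CG34323, CG14931, CG42814 and CG12698. In these 10 genes each of the 3 mip depletions gave 3 FPKM or more in both libraries, while the E2F2 library stayed between 0 and 1.25 FPKM and under 1 FPKM in 8. CG14052, whose main start lies at position 2117787 of chromosome X on the forward strand in the table's own coordinates, had 0.624 FPKM in the E2F2 library, 6.24 and 4.59 in mip40, 38.3 and 36.7 in mip120 and 23.9 and 13.9 in mip130 libraries, against 0.277 and 0.168 in GFP libraries. The sources used here name no build for these coordinates. The mip120 libraries of CG14052 stood above its mip130 libraries, these above its mip40 libraries, and the E2F2 library under 1 FPKM. CG8788 had 0.461 FPKM in the E2F2 library, 8.67 and 9.35 in mip40, 12.8 and 12.8 in mip120 and 22.3 and 22.5 in mip130 libraries, against 0.710 and 0.394 in GFP libraries. For this gene the order was mip130, mip120 and mip40, with no overlap between groups, and the E2F2 value lay between the GFP values. CG34355 had 0.512 FPKM in the E2F2 library, 10.95 and 10.6 in mip40, 5.87 and 6.29 in mip120 and 15.4 and 14.7 in mip130 libraries, against 0.180 and 0.155 in GFP libraries. Here mip120 was the lowest of the 3 mip groups, and the E2F2 library was again far under all of them.

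CG13148 had 0.0911 FPKM in the E2F2 library, 6.19 and 6.55 in mip40, 14.2 and 13.98 in mip120 and 13.7 and 11.1 in mip130 libraries, against 0.237 and 0.343 in GFP libraries, so that its E2F2 value was lower than both control values. CG31974 had 1.25 FPKM in the E2F2 library, 7.81 and 9.12 in mip40, 7.98 and 7.92 in mip120 and 10.7 and 13.6 in mip130 libraries, against 0.956 and 0.764 in GFP libraries. Its mip40 and mip120 libraries overlapped, and its mip130 libraries were above them. CG12698, the lowest of the class, had 1.24 FPKM in the E2F2 library, 4.06 and 3.34 in mip40, 3.73 and 4.14 in mip120 and 6.14 and 5.45 in mip130 libraries, against 0.957 and 0.564 in GFP libraries. The other 5 genes, CG12698 among them, had group means of 3.41 to 7.80 FPKM in mip40, 3.93 to 9.26 FPKM in mip120 and 5.80 to 11.1 FPKM in mip130 cells, against 0.0465 to 0.760 FPKM in GFP cells. CG42814 was listed at 0 in the E2F2 library.

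The second and largest class holds 16 genes that reached 3 FPKM in both mip120 and both mip130 libraries but not in both mip40 libraries: CG2887, CG9427, CG32625, CG17625, CG9150, CG9084, CG10307, CG5250, Fam92, CG4596, CG6865, CG15930, CG15130, CG17855, Gdap1 and BaraC. CG2887 had 4.61 FPKM in the E2F2 library, 2.40 and 2.18 in mip40, 23.1 and 24.4 in mip120 and 23.4 and 24.9 in mip130 libraries, against 0 and 0.142 in GFP libraries. Its mip120 and mip130 libraries overlapped closely, at about 10 times its mip40 level on the FPKM scale, with the E2F2 library between them and mip40. CG9427 had 1.38 FPKM in the E2F2 library, 0.131 and 0.318 in mip40, 8.08 and 8.71 in mip120 and 10.96 and 13.1 in mip130 libraries, against 0 and 0.339 in GFP libraries. Its mip40 libraries lay within the range of the GFP libraries. CG32625 had 2.25 FPKM in the E2F2 library, 2.95 and 4.40 in mip40, 4.72 and 7.68 in mip120 and 11.9 and 8.50 in mip130 libraries, against 0.947 and 0.142 in GFP libraries, with 1 mip40 library above 3 FPKM and 1 just under it. CG17625 had 0 FPKM in the E2F2 library, 3.30 and 1.17 in mip40, 8.95 and 10.5 in mip120 and 8.10 and 7.34 in mip130 libraries, against 0.175 and 0.157 in GFP libraries, and its mip40 libraries differed from each other more than its mip120 or mip130 libraries did. CG9150 had 1.07 FPKM in the E2F2 library, 1.43 and 1.93 in mip40, 9.14 and 7.77 in mip120 and 5.46 and 8.54 in mip130 libraries, against 0.422 and 0.232 in GFP libraries. The mip120 and mip130 libraries overlapped for CG9150 and both stood above mip40.

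The remaining 11 genes of this class had group means of 3.19 to 7.83 FPKM in mip120 and 3.45 to 8.33 FPKM in mip130 cells, against 0.0346 to 0.449 FPKM in GFP cells. Their mip40 means ran from 0 to 3.10 FPKM. Fam92, which encodes a BAR-domain protein of the ciliary base, was the highest of these in mip40 cells, with 0.712 FPKM in the E2F2 library, 3.29 and 2.91 in mip40, 3.14 and 3.63 in mip120 and 5.91 and 6.97 in mip130 libraries, against 0.419 and 0.478 in GFP libraries, and 1 mip40 library above 3 FPKM. Gdap1, which encodes a protein of the mitochondrial outer membrane, was among the lowest, with 10.6 FPKM in the E2F2 library, 0.171 and 0.0477 in mip40, 3.06 and 3.32 in mip120 and 3.66 and 4.28 in mip130 libraries, against 0.0840 and 0.0769 in GFP libraries. In 7 of the 16 genes both mip40 libraries were under 1 FPKM.

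The 8 genes at 3 FPKM or more in both mip120 libraries but not in both libraries of another mip group were CG12520, CG31373, CG9801, CG4213, COX7AL, CG5478, goe and CG33203. CG12520 had 0.225 FPKM in the E2F2 library, 0.801 and 0.880 in mip40, 5.38 and 5.02 in mip120 and 1.81 and 2.19 in mip130 libraries, against 0.778 and 0.591 in GFP libraries. CG31373 had 4.23 FPKM in the E2F2 library, 0.165 and 0.263 in mip40, 5.81 and 4.15 in mip120 and 2.65 and 3.01 in mip130 libraries, and was listed at 0 in both GFP libraries. In both genes the mip120 libraries were the highest of the mip libraries and the mip130 libraries stood between mip120 and mip40. CG9801 had 0.120 FPKM in the E2F2 library, 1.73 and 1.51 in mip40, 4.36 and 4.69 in mip120 and 2.19 and 2.06 in mip130 libraries, against 0.486 and 0.438 in GFP libraries. CG4213 had 7.76 FPKM in the E2F2 library, 0.417 and 0.460 in mip40, 4.66 and 4.29 in mip120 and 2.93 and 3.09 in mip130 libraries, against 0.0477 and 0.0680 in GFP libraries, with 1 mip130 library past 3 FPKM and 1 just under it. COX7AL, which encodes a relative of subunit 7A of cytochrome c oxidase, had 2.41 FPKM in the E2F2 library, 1.69 and 1.48 in mip40, 3.59 and 4.15 in mip120 and 3.22 and 2.83 in mip130 libraries, against 0.666 and 0.149 in GFP libraries. Like CG4213 and CG31373, it missed the class of mip120 and mip130 by a single mip130 library.

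The 12 genes of the mip130 class were CG9406, CG14312, CG1941, CG14787, CG32483, CG14795, CG11263, CG33654, CG11052, CG30161, CG5342 and vrs. CG9406 had 0.650 FPKM in the E2F2 library, 0.646 and 0.772 in mip40, 1.93 and 2.76 in mip120 and 8.75 and 10.02 in mip130 libraries, against 0.115 and 0.104 in GFP libraries. CG14312 had 0.474 FPKM in the E2F2 library, 1.89 and 1.65 in mip40, 0.622 and 1.99 in mip120 and 5.28 and 5.74 in mip130 libraries, and was listed at 0 in both GFP libraries. For both genes the mip130 libraries stood apart from all others. CG1941, whose product belongs to the diacylglycerol acyltransferase family, had 0.567 FPKM in the E2F2 library, 0.756 and 1.13 in mip40, 0.828 and 0.947 in mip120 and 5.48 and 5.35 in mip130 libraries, against 0.388 and 0.404 in GFP libraries. CG14787 had 0 FPKM in the E2F2 library, 2.89 and 0.373 in mip40, 1.70 and 2.79 in mip120 and 3.19 and 6.70 in mip130 libraries, and was listed at 0 in both GFP libraries, on the log2(FPKM + 1) scale the widest spread between replicates of all 49 genes in both mip40 and mip130. CG32483 had 0.590 FPKM in the E2F2 library, 1.22 and 1.13 in mip40, 1.14 and 1.59 in mip120 and 4.13 and 5.24 in mip130 libraries, against 0.249 and 0.273 in GFP libraries. In CG11263, CG30161 and vrs 1 mip120 library was above 3 FPKM, so that membership of this class rests on the limit chosen.

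Levels in mip120 cells were above those in mip130 cells for some of the 49 genes and below them for others. The rule read the values of both groups and the classes were named from them, so the counts and differences that follow describe the genes chosen, and nothing is read from them. In limma over all 7835 genes tested, 4 of the 49 genes were higher and 9 lower in mip120 than in mip130 cells at an adjusted p of 0.05, beside 3.38% higher and 4.94% lower among all genes tested. Among 300 other tested genes silent in the GFP libraries, 2.00% were higher and 6.67% lower. The 4 that were higher were CG5478, which differed by 1.45 on the log2(FPKM + 1) scale, CG12520, by 1.05, CG9801, by 0.82, and CG33203, by 0.71. CG5478 had 0.125 FPKM in the E2F2 library, 0.197 and 0.484 in mip40, 4.46 and 3.03 in mip120 and 1.23 and 0.316 in mip130 libraries, against 0.143 and 0.325 in GFP libraries. CG33203 had 0.524 FPKM in the E2F2 library, 0.769 and 0.567 in mip40, 3.53 and 3.29 in mip120 and 1.60 and 1.79 in mip130 libraries, against 0.344 and 0.123 in GFP libraries. In both, the mip120 libraries stood above all others. The most negative differences were those of CG1941, at -1.77, CG9406, at -1.64, CG14312, at -1.56, and CG32483, at -1.26. Not all of these calls held in 15 alternative settings, some of which leave out 1 library. The call was kept in 6 settings for CG5478, 7 for CG33203, 11 for CG9801 and 13 for CG12520. It was kept in 10 for CG14312 and 12 for CG32483, and in all 15 for CG1941 and CG9406. The other 5 genes that were lower in mip120 cells were CG34355, CG42814, CG8788 and CG4318 of the class shared by the 3 mip groups, and Fam92. The count rested on single libraries: it was 3 without mip120 replicate 1, 5 without mip120 replicate 2 and 4 without mip130 replicate 2.

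The 49 genes were mostly at lower levels in mip40 cells than in the other mip depletions. The rule read all of these values, and 46 of the 49 genes were taken through mip120 or mip130, so this direction was largely set by the choice of genes. The counts are a description, and nothing is read from them. Of the 49 genes, 5 were higher and 32 lower in mip40 than in mip120 cells, beside 14.3% higher and 11.2% lower among all genes tested. Against mip130 cells, 3 were higher and 40 lower in mip40 cells, beside 12.7% and 12.3%. The median difference on the log2(FPKM + 1) scale was -1.08 to mip120 and -1.30 to mip130 over the 49 genes, and 0.03 and -0.02 over all genes tested. Among the same 300 other genes, 3.67% were higher and 24.7% lower in mip40 than in mip120 cells, and 1.33% and 28.0% in mip40 than in mip130 cells. CG9427 had the most negative differences, at -2.94 to mip120 and -3.41 to mip130. CG2887 followed, at -2.91 and -2.94. CG9084 differed by -2.59 from mip120, with 0.139 FPKM in the E2F2 library, 0.327 and 0.266 in mip40, 6.65 and 6.95 in mip120 and 7.45 and 9.21 in mip130 libraries, against 0 and 0.0715 in GFP libraries. CG5250 differed by -2.74 from mip130, with 2.18 FPKM in the E2F2 library, 0.381 and 0.157 in mip40, 5.73 and 6.30 in mip120 and 6.997 and 7.86 in mip130 libraries, against 0.0692 and 0 in GFP libraries. CG14052, though high in mip40 cells, differed by -2.60 from mip120. Without mip130 replicate 2, the count of genes that differed between mip40 and mip130 was 26 in place of 43.

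The 5 genes that were higher in mip40 than in mip120 cells were CG34355, with a difference of 0.73, CG42814, with 0.56, and the 3 genes of the mip40 class. CG34355 differed by -0.45 from mip130 cells. CG42353 of the mip40 class had 4.05 FPKM in the E2F2 library, 5.32 and 6.06 in mip40, 2.10 and 1.12 in mip120 and 0.487 and 0.734 in mip130 libraries, against 0.600 and 0.506 in GFP libraries, with mip40 libraries above all mip120, mip130 and GFP libraries. It differed by 1.38 from mip120 and 2.06 from mip130.

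The other 2 genes of the mip40 class were listed at 0 in most libraries. CG3726 had 20.1 FPKM in the E2F2 library, 18.3 and 19.1 in mip40, and was listed at 0 in all mip120, mip130 and GFP libraries. PNPase, which encodes the exonuclease polynucleotide phosphorylase of mitochondria, had 11.1 FPKM in the E2F2 library, 8.64 and 10.9 in mip40, and was listed at 0 in all mip120, mip130 and GFP libraries. No fold is given for them, since an exact 0 in a table of FPKM can be a failed estimate. Gcn2, a kinase of the integrated stress response, had 14.8 FPKM in the E2F2 library, 11.9 and 11.9 in mip40, and was listed at 0 in all mip120, mip130 and GFP libraries, and Gprk2, a kinase of G protein-coupled receptors, had 33.9 FPKM in the E2F2 library, 33.1 and 32.8 in mip40, and was listed at 0 in all mip120, mip130 and GFP libraries. Both overlap PNPase in RefSeq's annotation, so that 3 overlapping genes share the same libraries at 0. Without CG3726 and PNPase, 3 genes were higher and 32 lower in mip40 than in mip120 cells, and 1 was higher and 40 lower in mip40 than in mip130 cells.

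The E2F2 library was not read by the rule, although the GFP libraries it is set against were, and it has no replicate. Of the 49 genes, 12 were at 3 FPKM or more in it, 8 between 1 and 3 FPKM and 29 under 1 FPKM. Among all 4264 silent CG-named genes, 22 (0.516%) reached 3 FPKM in this library, 10 of which were not among the 49. In limma, which lends the E2F2 library the spread of the other groups, 15 of the 49 were higher and 0 lower than in GFP cells at an adjusted p of 0.05, and 20 and 3 at an unadjusted p of 0.05. The share of genes called higher was 9.28% over all genes tested and 12.3% over the 300 other tested genes silent in the GFP libraries. These counts describe the genes: the rule held the GFP libraries under 1 FPKM, and the genes entered the fit through the mip groups. The median difference was 0.31 over the 49 genes and 0.08 over all genes tested. The count was 7 when only the E2F2 and GFP libraries were fitted, and 13 without CG3726 and PNPase.

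Among the 10 genes of the first class, 0 reached 3 FPKM in the E2F2 library, beside 12 of the 49 genes and 0.516% of the silent CG-named genes. Their E2F2 level was 0 to 1.25 FPKM, and in 8 of them it was under 1 FPKM. The mip values set this class and the E2F2 library has no replicate, so nothing is read from these counts. Gdap1 had the largest difference from GFP cells among genes not listed at 0 in both GFP libraries, at 3.42 on the log2(FPKM + 1) scale. CG10307 followed, at 3.13, with 9.71 FPKM in the E2F2 library, 0.316 and 0.655 in mip40, 6.91 and 8.76 in mip120 and 7.28 and 7.38 in mip130 libraries, against 0.231 and 0.211 in GFP libraries. CG4213 differed from GFP cells by 3.05 and CG15130 by 2.77. CG15130 had 6.52 FPKM in the E2F2 library, 0.172 and 0.247 in mip40, 3.78 and 3.30 in mip120 and 4.37 and 5.16 in mip130 libraries, against 0.217 and 0 in GFP libraries. BaraC, a gene of the baramicin family, differed by 2.46, with 4.92 FPKM in the E2F2 library, 0 and 0 in mip40, 3.05 and 3.66 in mip120 and 4.05 and 3.63 in mip130 libraries, against 0 and 0.161 in GFP libraries. For these 5 genes the E2F2 library was above every mip120 and mip130 library, and every mip40 library was under 1 FPKM. CG5342 differed by 1.90, with 4.83 FPKM in the E2F2 library, 2.28 and 2.34 in mip40, 2.94 and 2.20 in mip120 and 3.64 and 3.07 in mip130 libraries, against 0.508 and 0.621 in GFP libraries, and was at 2 to 4 FPKM in the mip libraries. The rest of the 15 were CG2887, CG31373, CG14795, CG42353, CG5250, COX7AL, CG9427, CG3726 and PNPase.

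Across the 49 genes, the E2F2 and mip40 levels thus combined in several ways. In 16 genes both mip40 libraries were under 1 FPKM, and 6 of these were at 3 FPKM or more in the E2F2 library: CG10307, CG15130, Gdap1, BaraC, CG31373 and CG4213. Of the 13 genes at 3 FPKM or more in both mip40 libraries, 8 were under 1 FPKM and 3 at 3 FPKM or more in the E2F2 library, and these 3 are the mip40 class. No share over other silent genes was set beside these counts, so nothing is read from them. Set against the mean of the 3 mip groups in the same model, 10 genes were higher and 33 lower in the E2F2 library, beside 19.5% higher and 9.73% lower among all genes tested. The mip values chose the genes, so this comparison leans towards lower E2F2 values and the counts are a description. Among the 300 other tested silent genes, 7.67% were higher and 29.0% lower. The 10 that were higher were CG3726, PNPase, Gdap1, CG4213, CG15130, CG10307, BaraC, CG31373, CG42353 and CG5342, of which CG3726 and PNPase were listed at 0 in the mip120 and mip130 libraries.

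**Figure D2:**
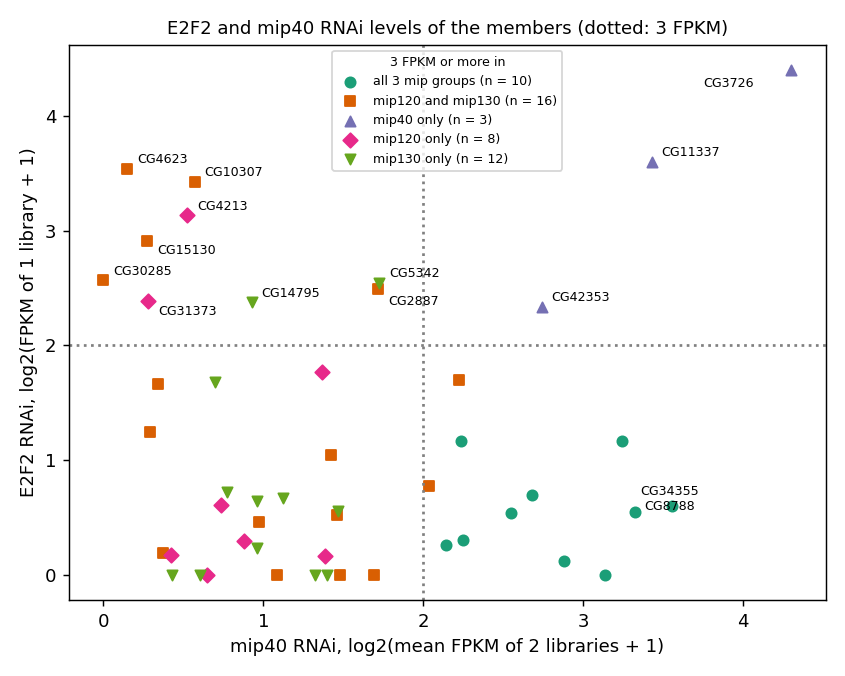
E2F2 level (vertical axis) against mean mip40 level (horizontal axis) of the 49 genes, both as log2(FPKM + 1), with the class of each gene by colour and shape and dotted lines at 3 FPKM. The 10 genes of the class shared by the 3 mip groups lie at the lower right, with E2F2 levels of 0 to 1.25 FPKM, and Gdap1 (CG4623), CG10307, CG4213, CG15130, BaraC (CG30285) and CG31373 at the upper left.

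A single transcript was listed for 26 of the 49 genes, and all 49 were found in RefSeq's table of genes. In 20 of them, another annotated gene overlaps, and since nothing used here states whether the libraries keep the strand, reads of overlapping genes cannot be told apart. Shares over all genes were not taken for these counts, so nothing is read from them. Over the mip libraries, the level of CG2887 came almost wholly from a single transcript that overlaps the gene without matching its known form. The known transcript held 0.819% of its FPKM there, but 2.06 of 4.61 FPKM in the E2F2 library. Over the mip libraries, the level of CG3726 came from a new isoform, with 2.73% in the known one, and CG8788 had only new isoforms above 0. With known transcripts alone, the thresholds gave 43 genes, 42 of them among the 49, and CG15130, CG2887, CG3726, CG4213, CG42353, CG8788 and goe were lost. By chromosome, 12 genes (24.5%) were on X, 7 (14.3%) on 2L, 8 (16.3%) on 2R, 5 (10.2%) on 3L and 17 (34.7%) on 3R. The shares of all silent CG-named genes were 14.5%, 19.3%, 19.4%, 21.0% and 24.1%, in the same order. These shares were not tested.

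Many of the genes begin close to a gene on the other strand. In 33 of the 49 genes (67.3%), a transcript of another gene listed in the table started within 1000 bp upstream on the opposite strand, so that both are transcribed away from each other. Among the other silent CG-named genes the share was 15.5% of 4215. Among CG-named genes at 1 FPKM or more in both GFP libraries it was 55.2% of 3282, and among all genes without small RNA genes it was 36.4% of 14482. Genes with another kind of symbol that met the same thresholds gave 26 of 38 (68.4%). Starts of any listed isoform counted here. The distance between the nearest such starts was 28 to 505 bp with a median of 232 bp, and in 31 of the 33 it was at most 400 bp. The main starts, those of the transcript with the highest summed level, lay further apart in some pairs. They were 2251 bp apart for CG4213 and RpI135 and 1295 bp apart for CG14052 and Vinc. The neighbour was at 1 FPKM or more in both GFP libraries for 27 of the 49 genes (55.1%), against 5.41% of the other silent CG-named genes, 48.9% of the CG-named genes at 1 FPKM or more in GFP libraries, 52.6% of the genes with another kind of symbol that met the thresholds and 28.1% of all genes. By class, the share with such a neighbour start was 7 of 10 for the class of the 3 mip groups, 12 of 16 for mip120 and mip130, 2 of 3 for mip40, 5 of 8 for mip120 and 7 of 12 for mip130. These shares are descriptions without a test.

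**Figure D3:**
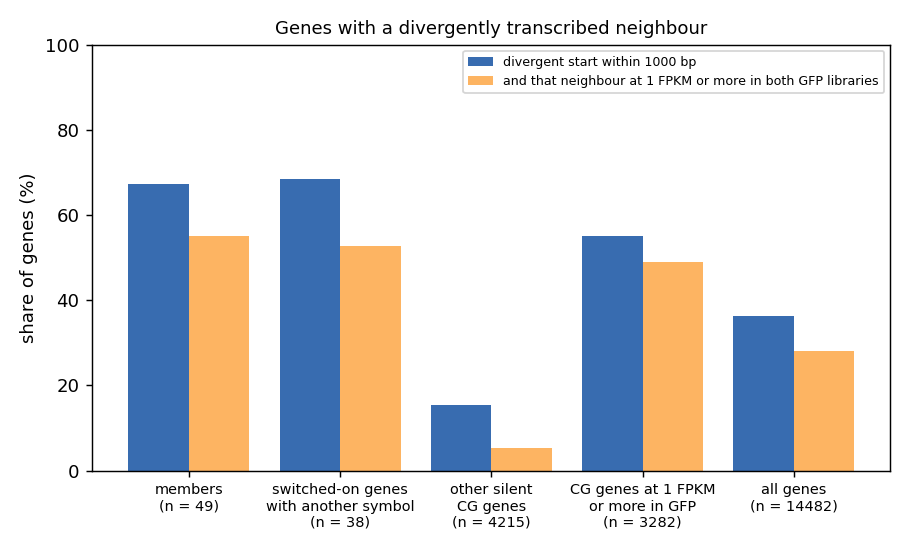
Share of genes, in percent, with a divergently transcribed neighbour whose nearest listed start, of any isoform, lies within 1000 bp (blue) and with such a neighbour at 1 FPKM or more in both GFP libraries (orange), for the 49 genes, for switched-on genes with other symbols, for the other silent CG-named genes, for CG-named genes at 1 FPKM or more in GFP libraries and for all genes. The blue bars are 67.3% for the 49 genes and 15.5% for the other silent CG-named genes.

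The 27 expressed neighbours had median levels close to those of control cells. Among them are Vinc (vinculin, a protein of cell adhesion sites), alc (the beta subunit of AMP-activated kinase), PPP4R2r (a regulatory subunit of protein phosphatase 4), Sas10 (a factor of ribosomal RNA processing), RpI135 (a subunit of RNA polymerase I), Syx6 (a syntaxin) and Doa (a kinase of splicing factors). Their mean level in GFP cells ran from 3.07 to 297 FPKM, with a median of 24.5 FPKM. On the log2(FPKM + 1) scale, the median difference of the neighbours from GFP cells was 0.04 in E2F2, 0.01 in mip40, -0.06 in mip120 and 0.00 in mip130 cells. For their partners among the 49 genes it was 0.33, 0.97, 2.24 and 2.36, in the same order. The rule chose these partners for low GFP and high mip levels, and only neighbours expressed in GFP libraries were taken here. The gap between the medians was thus set in part by the choice of genes. In E2F2 cells 3 of the 27 were called higher and 1 lower, beside 9.28% and 2.72% of all genes tested. In mip40 cells 1 was higher and 0 lower, beside 5.69% and 3.51%. In mip120 cells 3 were higher and 5 lower, beside 17.6% and 18.9%, and in mip130 cells 1 was higher and 6 lower, beside 19.3% and 16.9%. These 4 comparisons share the GFP libraries.

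CG8788 and alc begin 62 bp apart by their nearest listed starts, the measure also used for the pairs below unless main starts are named. Alc had 28.7 FPKM in the E2F2 library, 32.3 and 36.9 in mip40, 36.4 and 37.4 in mip120 and 33.5 and 31.5 in mip130 libraries, against 32.8 and 36.7 in GFP libraries, a range in which the depleted and GFP libraries overlapped. CG14052 and Vinc begin 220 bp apart by the start of a new isoform of CG14052, and 1295 bp apart by their main starts. Vinc had 79.5 FPKM in the E2F2 library, 101 and 96.7 in mip40, 74.7 and 62.7 in mip120 and 71.04 and 72.7 in mip130 libraries, against 87.8 and 97.3 in GFP libraries. Vinc fell by 0.43 in mip120 cells (adjusted p = 0.0134) and by 0.36 in mip130 cells (adjusted p = 0.0262) on the log2(FPKM + 1) scale, while CG14052 was higher there. CG2887 and PPP4R2r begin 145 bp apart, and PPP4R2r had 306 FPKM in the E2F2 library, 303 and 278 in mip40, 248 and 231 in mip120 and 244 and 232 in mip130 libraries, against 285 and 309 in GFP libraries. It too fell, by 0.31 in mip120 and by 0.32 in mip130 cells. Other expressed neighbours rose. In mip120 cells 3 of the 27 were called higher and 5 lower. The higher ones were Gclm, by 0.29, blp, by 0.28, and Syx6, by 0.23, the neighbours of CG17625, CG5478 and CG9084. In mip130 cells 1 was called higher and 6 lower, the higher one being RabX6, the neighbour of CG32483, by 0.27. Among the 27 in the mip groups, the most negative difference was -0.57, for CG11454, the neighbour of CG31974, and the most positive was 0.39, both in mip130 cells. The positive one was that of CG10672, the neighbour of Gdap1, which did not pass. In the E2F2 library they were -0.76 for SelR, the neighbour of CG4596, and 0.76 for CG3223, the neighbour of CG11052.

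**Figure D4:**
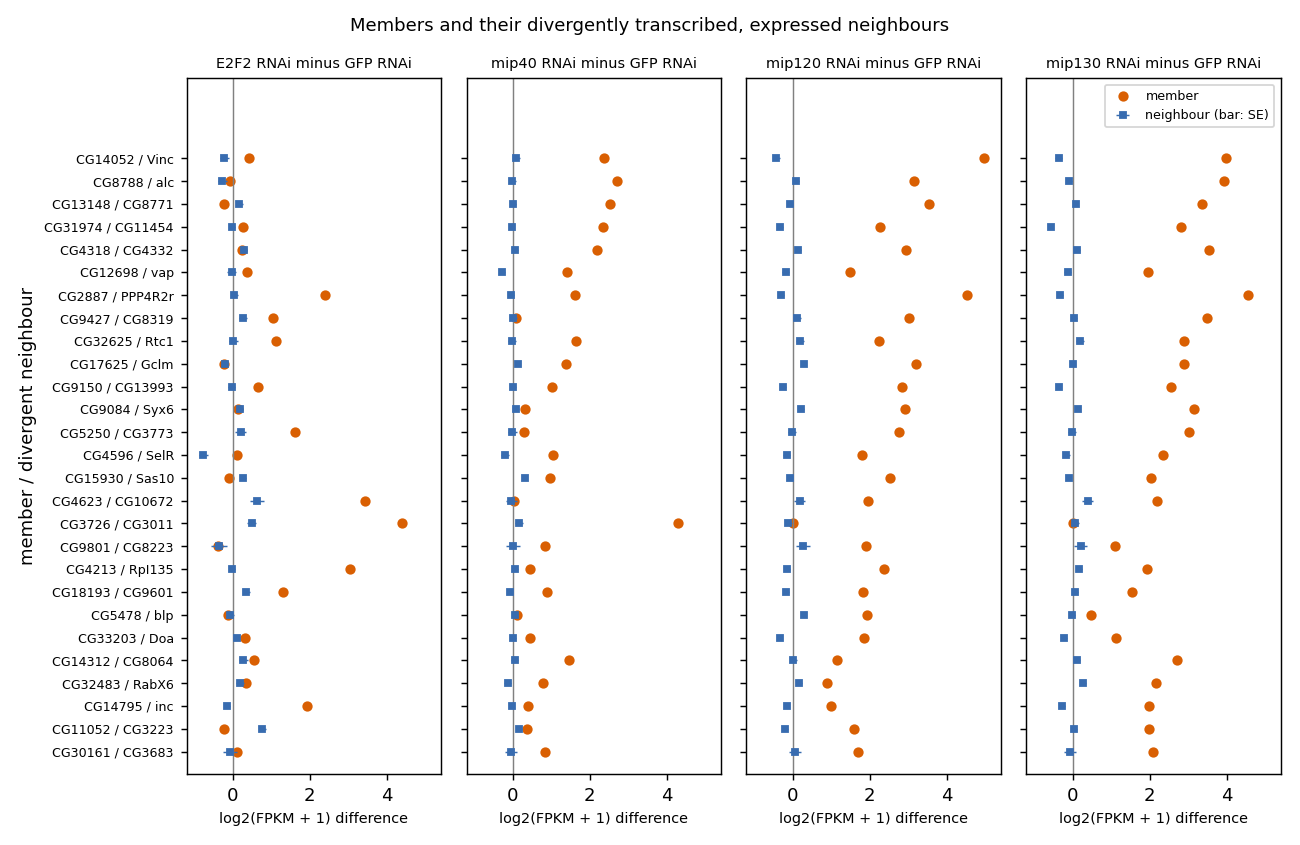
Difference from GFP RNAi on the log2(FPKM + 1) scale in E2F2, mip40, mip120 and mip130 RNAi (panels from left to right) for the 27 pairs of a gene of the set (orange circles, chosen for being high in a mip group) and its expressed divergent neighbour (blue squares with the SE of the model). The neighbours lie between -0.76 and 0.76 in all panels, and the genes of the set reach 4.98.

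In a few pairs both genes were near or under 1 FPKM in control cells and both were found after depletion. CG10307 and BaraC, both among the 49, begin 391 bp apart on chromosome 2R, at 17576417 and 17576026, and their values above followed the same order of groups: E2F2, then mip120 and mip130, then mip40 and GFP at or near 0. CG1941 begins 337 bp from the nearest listed start of tor and 683 bp from its main start. The gene tor encodes the receptor tyrosine kinase torso of the embryonic termini. Tor had 0.0634 FPKM in the E2F2 library, 0.829 and 0.895 in mip40, 0.488 and 0.654 in mip120 and 7.52 and 6.55 in mip130 libraries, against 0 and 0.0560 in GFP libraries. Its mip130 libraries stood apart from all others, as those of CG1941 did. Tor differed from GFP cells by 2.96 ± 0.14 (SE, adjusted p = 3.6e-05) in mip130 cells, 0.61 ± 0.14 (SE, adjusted p = 0.0172) in mip120 cells and 0.86 ± 0.14 (SE, adjusted p = 0.0159) in mip40 cells. CG5342 begins 81 bp from CG6790, which had 6.55 FPKM in the E2F2 library, 2.47 and 2.02 in mip40, 3.09 and 3.27 in mip120 and 4.15 and 4.89 in mip130 libraries, against 1.03 and 0.700 in GFP libraries and missed the control limit by a single library. CG6790 differed from GFP cells by 2.02 ± 0.17 (SE, adjusted p = 0.00141) in the E2F2 library and 1.57 ± 0.14 (SE, adjusted p = 0.000454) in mip130 cells. PNPase and Gprk2, whose nearest listed starts are 505 bp apart and whose main starts are 677 bp apart, shared the libraries listed at 0. Not every neighbour that was low in control cells changed with its partner. CG34323 begins 298 bp from CG43961, which was not called in any depletion. CG43961 was at 0.88 and 0.38 FPKM in the GFP libraries and at 0.47 to 1.91 FPKM in the depleted ones. CG34323 differed from GFP cells by 1.88 in mip40, 3.10 in mip120 and 3.27 in mip130 cells on the log2(FPKM + 1) scale.

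Of the genes next to the 49 on either side, whatever their strand, 73 of 94 were tested. In the E2F2 library 12 (16.4%) were higher and 0 lower than in GFP cells, beside 9.28% and 2.72% of all genes tested. In mip40 cells 6 were higher and 3 lower than in GFP cells, beside 5.69% and 3.51% of all genes tested. In mip120 and in mip130 cells 11 were higher and 14 lower, beside 17.6% and 18.9% for mip120 and 19.3% and 16.9% for mip130. Gprk2 and Gcn2, both called higher in the E2F2 library and in mip40 cells, were listed at 0 in GFP libraries, so no difference is given for them. The largest differences from GFP cells among the others were those of tor in mip130 cells, at 2.96, and of CG6790 in the E2F2 library, at 2.02, on the log2(FPKM + 1) scale. The counts depended on single libraries. In mip40 cells they were 4, 4, 3 and 4 without mip40 replicate 1 or 2 or GFP replicate 1 or 2, in that order. In mip120 cells they were 14, 7, 16 and 13 without mip120 replicate 1 or 2 or GFP replicate 1 or 2. In mip130 cells they were 13, 8 and 10 without mip130 replicate 1, mip130 replicate 2 or GFP replicate 2.

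The limits of the choice fell in a continuous range of values. Just inside the control limit were CG12698, CG31974 and CG32625, with a highest GFP level of 0.957, 0.956 and 0.947 FPKM. Just outside it were CG6790, CG42308 and CG42575, with 1.03, 1.08 and 1.09 FPKM. Just inside the other limit were CG5478, CG5342 and CG14787, whose lower library in their best mip group was at 3.03, 3.07 and 3.19 FPKM. Just outside were CG3121, CG13949 and CG12477, at 2.99, 2.95 and 2.91 FPKM.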

How the data were processed

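FPKM of 37161 transcripts in 9 RNA libraries were deposited by the authors. Per the submitters' processing notes, Bowtie 1.1.1, TopHat2 2.0.12, Cufflinks and Cuffnorm were used. Neither genome build, annotation release nor strand setting is stated (not given in the sources used here). FPKM keep no read counts, so depth is unknown, no count test could be run, and no interval or floor for a value of 0 can be given.

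The FPKM of known transcripts, new isoforms and other overlaps on a gene (36421 transcripts) were summed per gene, and 4 deposited columns of group means were not used. The 9 samples of digested chromatin and 1 of naked DNA were not analysed here. A single linear model of the 5 groups was fitted to log2(FPKM + 1) of all 9 libraries with limma 3.58.1 in R 4.3.3, with an intensity trend. It covered 7835 genes that reached 1 FPKM in 2 or more libraries, which could be those of the depleted groups. All 49 genes passed that filter, through the groups that chose them, so counts of them called are descriptions. p-values were adjusted by Benjamini-Hochberg at 0.05 over all genes tested. The model has 4 residual degrees of freedom and 2.77 prior ones. No label ties replicates to separate cultures, so p-values measure the spread between these libraries, which may be technical. The fit was tested on simulated data with changes placed in the mip130 group alone. Their recovery was scored against GFP only in genes well above 0 in GFP cells. That test does not cover recovery for genes silent in GFP cells or for the single E2F2 library.

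The genes, lists and limits were chosen with earlier results of these data known. Every one of the 49 genes is named by its class. Values in every library were given for the 5 genes of each class with the highest mip mean, the 8 highest in the E2F2 library among those at 3 FPKM or more, the 4 largest differences between mip groups in each direction whose libraries do not overlap, and the genes nearest the limits by their limiting value; of neighbouring genes, the 4 with the largest change were named, and Fam92, Gcn2 and a few divergent neighbours were added after their values were seen. Positions are the table's; RefSeq's Release 6 table served for names and gene order alone. Errors are SE of the model. The alternatives were other pseudocounts, filters, scalings, transcript classes and samples. Promoter motifs were not searched.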

Additional observations from a re-analysis of the deposited data

Results flagged for a closer look

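The levels above leave out transcripts that run antisense to a gene, and 3 of the 49 genes have such transcripts. At CG31373 their summed level was 17.3 FPKM in the E2F2 library, 19.99 FPKM on average in mip120 and 11.6 FPKM in mip130 cells, and was listed at 0 in both mip40 libraries, against 1.04 and 0 FPKM in the GFP libraries. CG31373 itself had 4.23 FPKM in the E2F2 library and 0.165 and 0.263 FPKM in the mip40 libraries, and was listed at 0 in both GFP libraries. At CG6865 the summed antisense level was 3.91 FPKM on average in mip40, 15.5 FPKM in mip120 and 12.7 FPKM in mip130 cells and 0.533 FPKM in the E2F2 library, against 0.131 and 0.101 FPKM in the GFP libraries. Both were noted because they are a signal outside the main measurement that stands above its level in the control libraries. At CG14795 it stayed between 0.351 and 2.42 FPKM in the depleted libraries, against 0.128 and 0.368 FPKM in the GFP libraries. With the strand setting not given, antisense and sense reads of these genes cannot be told apart, and no test was run.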

How the results depend on the processing

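The thresholds gave 38 genes with a control limit of 0.5 FPKM, 28 with at least 5 FPKM in place of 3, 43 with known transcripts alone, 49 after median-ratio scaling (48 shared) and 49 to 55 without 1 library. Counts of called genes among the 49 stayed within 1.5 times of those reported under another pseudocount (0.25), no filter, median-ratio scaling, quantile normalization and known transcripts alone. With only the libraries of the groups compared, 7 genes differed between E2F2 and GFP, 6 between mip120 and mip130, and 3 neighbouring genes between mip40 and GFP; these fits hold fewer libraries. Without 1 library each, the counts were 13 to 16 for E2F2 against GFP, 26 to 37 for mip40 against mip120, 26 to 42 for mip40 against mip130, 3 to 14 for mip120 against mip130 and 42 to 43 for E2F2 against the mip mean. For mip120 against mip130 the count was 3 without mip120 replicate 1, 5 without mip120 replicate 2 and 4 without mip130 replicate 2, and for mip40 against mip130 it was 26 without mip130 replicate 2; the cause was not tested. For neighbouring genes the ranges were 3 to 7 in mip40, 7 to 23 in mip120 and 8 to 26 in mip130 cells. No named result changed direction, but some named calls did not pass in every setting.

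Replicate numbers were not used to pair the libraries in the main model. The correlations of same-numbered deviations ran from -0.135 to 0.021, which cannot tell whether same-numbered libraries were prepared together. With the replicate block, 14 genes were called for E2F2 against GFP, 36 for mip40 against mip120, 39 for mip40 against mip130, 9 for mip120 against mip130, 38 for E2F2 against the mip mean and 5 neighbouring genes in mip40 cells. With the mip40 numbers crossed, chosen after seeing the data, the block called 36 for mip40 against mip120 and 40 for mip40 against mip130. Divergent neighbours were 31 at 400 bp or with known starts alone, both also added later. Depth is unknown in FPKM, so how far low values can be told from 0 could not be settled.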

Other observations

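Among CG-named genes silent in the GFP libraries, 10 reached 3 FPKM in the E2F2 library without meeting the limits in a mip group; the genes named here were picked after their values were seen. CG43954 had 31.96 FPKM in the E2F2 library, 0 and 0 in mip40, and was listed at 0 in all mip120, mip130 and GFP libraries. CG43986, now named Frl, had 9.06 FPKM in the E2F2 library, 0 and 0 in mip40, 0 and 0 in mip120 and 1.18 and 22.9 in mip130 libraries, and was listed at 0 in both GFP libraries, so that its mip130 libraries disagreed with each other. CG13813 had 4.60 FPKM in the E2F2 library, 1.08 and 0.703 in mip40, 1.997 and 2.63 in mip120 and 2.57 and 2.64 in mip130 libraries, against 0.398 and 0.243 in GFP libraries. CG3121, now named Rsph4a after a radial spoke protein of cilia, had 3.61 FPKM in the E2F2 library, 0.0376 and 0.191 in mip40, 2.99 and 3.40 in mip120 and 2.52 and 2.30 in mip130 libraries, against 0 and 0.0256 in GFP libraries; 1 mip120 library and both mip130 libraries were under 3 FPKM. The single E2F2 library has no replicate against which these values could be set.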
